A study of Malus domestica with 12 samples.

Results

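The miR858 family was described in dormant buds of the apple tree (Malus domestica). Its members were the distinct mature sequences of the table of known miRNAs whose first database name was miR858, which gave 4 of the 370 distinct small RNA sequences analysed here. They carried the names ath-miR858b, mdm-miR858, ppe-miR858 and aly-miR858-5p, after Arabidopsis thaliana, apple, peach and Arabidopsis lyrata, and a prefix gives only the species of the database entry, since all reads came from apple buds. The fourth, aly-miR858-5p, was taken by the rule although it was rare.

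Apical floral buds of spurs of "Golden Delicious" trees from 1 orchard were collected at 4 stages, and small RNAs were sequenced in 12 libraries, 3 per stage, each pooled from buds of several trees. Stage 1 (Early Endodormancy, libraries A to C) had received 665 chilling hours, Stage 2 (Late Endodormancy, D to F) 1098, Stage 3 (Early Ecodormancy, G to I) 1280 and Stage 4 (Late Ecodormancy, J to L) 1395. Endodormant buds do not resume growth in warmth, whereas ecodormant buds can and are held back by the cold, and the stages were told apart by a forcing test. Trees were of 1 cultivar and age, and each stage was 1 date, so that stage and date cannot be told apart. Small RNAs were purified through their association with ARGONAUTE (AGO) proteins, the proteins that miRNAs guide, so that the reads count small RNAs recovered with AGO. In a whole bud, fewer cells that make a small RNA and less of it per cell cannot be told apart either.

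Plant miRNAs guide AGO proteins to mRNAs of near-perfect complementarity, which are cleaved or less translated. In Arabidopsis, miR858 targets mRNAs of R2R3-MYB transcription factors, among them regulators of flavonol and other phenylpropanoid synthesis, the pathway of pigments, tannins and lignin. The first base of a small RNA is known in Arabidopsis to bear on the AGO protein that takes it up: AGO1 prefers a 5′ uridine and AGO5 a 5′ cytidine.

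The 4 sequences are printed 5′ to 3′ as the deposited table has them, in DNA letters and with bases 2 to 8, the seed, in capitals, because the members differ only at their ends.
ath-miR858b: tTCGTTGTctgttcgaccttg
mdm-miR858: tTCGTTGTctgttcgacctga
ppe-miR858: cTCGTTGTctgttcgaccttg
aly-miR858-5p: tTTCGTTGtctgttcgacctt

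All were 21 bases long. With positions counted from 1 at the 5′ end and ath-miR858b as reference, mdm-miR858 differed by T20G and G21A at its 3′ end, and ppe-miR858 by T1C at its 5′ end. The fourth, aly-miR858-5p, was the ath-miR858b sequence moved by 1 base towards the 5′ side, with 20 of 20 overlapping bases identical. The first 3 thus shared the seed TCGTTGT, and aly-miR858-5p had the seed TTCGTTG. An 18-base core, TCGTTGTCTGTTCGACCT, was common to the 4 members and was in none of the other 366 sequences. One other sequence, gma-miR6300, had the same bases 2 to 8, and the nearest sequence outside the family had 7 mismatches to ath-miR858b. A T was the first base of 168 of the 370 sequences (45.4%), which held 94.9% of all reads, and a C that of 49 (13.2%), with 1.49% of all reads. In its first base, ppe-miR858 therefore belonged to the class with fewer sequences and fewer reads. The shares of reads rest largely on miR166, which alone took 66.2% to 91.4% of the reads of a library.

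A selection of the sites that the study's target prediction lists for ath-miR858b in apple MYB genes is shown, to place the differing bases against a target. The paper names further predicted miR858 targets among MYB genes, so the pairings below hold for the sites shown only. They are printed 5′ to 3′ in RNA letters, with the bases opposite the seed of ath-miR858b in capitals.
MD15G1215500 and MD02G1087900 (annotated TT2, MYB123): ccagggcgaacagACAAUGAa
MD15G1051000 (annotated MYB3): ccaggacgaacagACAAUGAa
MD04G1060200 (annotated WER, MYB66): ccaggccgaacagACAAUGAa
MD14G1134900 (annotated MYB6): cccggucgaacagACAAUGAg

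In Arabidopsis, TT2 activates proanthocyanidin synthesis in the seed coat, MYB3 represses phenylpropanoid genes and WER sets cell fate in the root epidermis. At the TT2, MYB3 and WER sites, ath-miR858b and mdm-miR858 each had 18 Watson-Crick pairs, 1 G-U pair at position 4 and 2 mismatches, at positions 16 and 20 for ath-miR858b and at 16 and 21 for mdm-miR858. The C at the 5′ end of ppe-miR858 added a mismatch at position 1, which left 17 Watson-Crick pairs. At the MYB6 site, ppe-miR858 had 18 Watson-Crick pairs and both ath-miR858b and mdm-miR858 had 17, since the last base of that site is a G. These are pairings of letters, and no mRNA was measured in these libraries.

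The family was carried by ath-miR858b and mdm-miR858. Over the 12 libraries, ath-miR858b had 17608 reads, 53.9% of the 32682 reads of the family, and ranked 18 of 370 in abundance, and mdm-miR858 had 14408 reads, 44.1%, and ranked 21. Both were read in 12 of 12 libraries, with 484 to 4812 reads for ath-miR858b and 149 to 5555 for mdm-miR858. The peach-named sequence had 563 reads (1.72%) in 10 libraries, and aly-miR858-5p 103 reads (0.315%) in 5. Mismatches allowed in counting are not given in the sources used here. How far reads of these near-identical sequences were shared in counting was not tested.

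Libraries held 561723 to 2307267 reads of mature sequences, of which miR166 took 66.2% to 91.4% and the miR858 family 0.0425% (L) to 0.781% (I). Reads were compared as CPM, the reads of a sequence scaled to a common total of mature reads, after TMM scaling, which uses factors that reduce the weight of a dominant sequence such as miR166. Libraries D and L stood apart, with a median Spearman correlation to the other libraries of 0.799 and 0.758 and with 174 and 191 distinct sequences against 235 to 276 in the other 10. Their TMM factors were the lowest, 0.640 and 0.639, and the highest was 1.69 (J). Library I, the highest in both major sequences, came next with a correlation of 0.808, against 0.856 or more in the other 9. No pair of libraries within a stage agreed within sampling noise, and the lowest chi-square per degree of freedom was 24.8.

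Both major sequences were highest in 2 of the 3 libraries of Stage 3. The level of mdm-miR858 was 669, 261 and 207 CPM in A, B and C of Stage 1, 1293, 287.5 and 147 CPM in D, E and F of Stage 2, 2186, 496 and 3520.0 CPM in G, H and I of Stage 3, and 319, 423 and 206 CPM in J, K and L of Stage 4. Libraries I and G were the highest and D came next, while H, the third library of Stage 3, lay below D and A. Stage 3 lay wholly above Stage 4 and overlapped Stages 1 and 2. The share of other sequences that separate wholly between stages is not given here, so such separation is only a description. The stage means were 379 ± 253, 576 ± 625, 2067 ± 1515 and 316 ± 108 CPM in Stages 1 to 4 (SD, n = 3).

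For ath-miR858b the levels were 1189.9, 875 and 759 CPM in A, B and C, 663, 616 and 478 CPM in D, E and F, 2025, 857 and 3049 CPM in G, H and I, and 1210.0, 906 and 408 CPM in J, K and L. Again I and G were the highest, whereas D, high in mdm-miR858, was not. Stage 2 was the lowest stage, wholly below Stages 1 and 3, and Stage 3 overlapped Stages 1 and 4 through library H. The stage means were 941 ± 223, 586 ± 96.1, 1977 ± 1097 and 842 ± 405 CPM (SD, n = 3), and the order was Stage 3, Stage 1, Stage 4 and Stage 2.

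**Figure D1:**
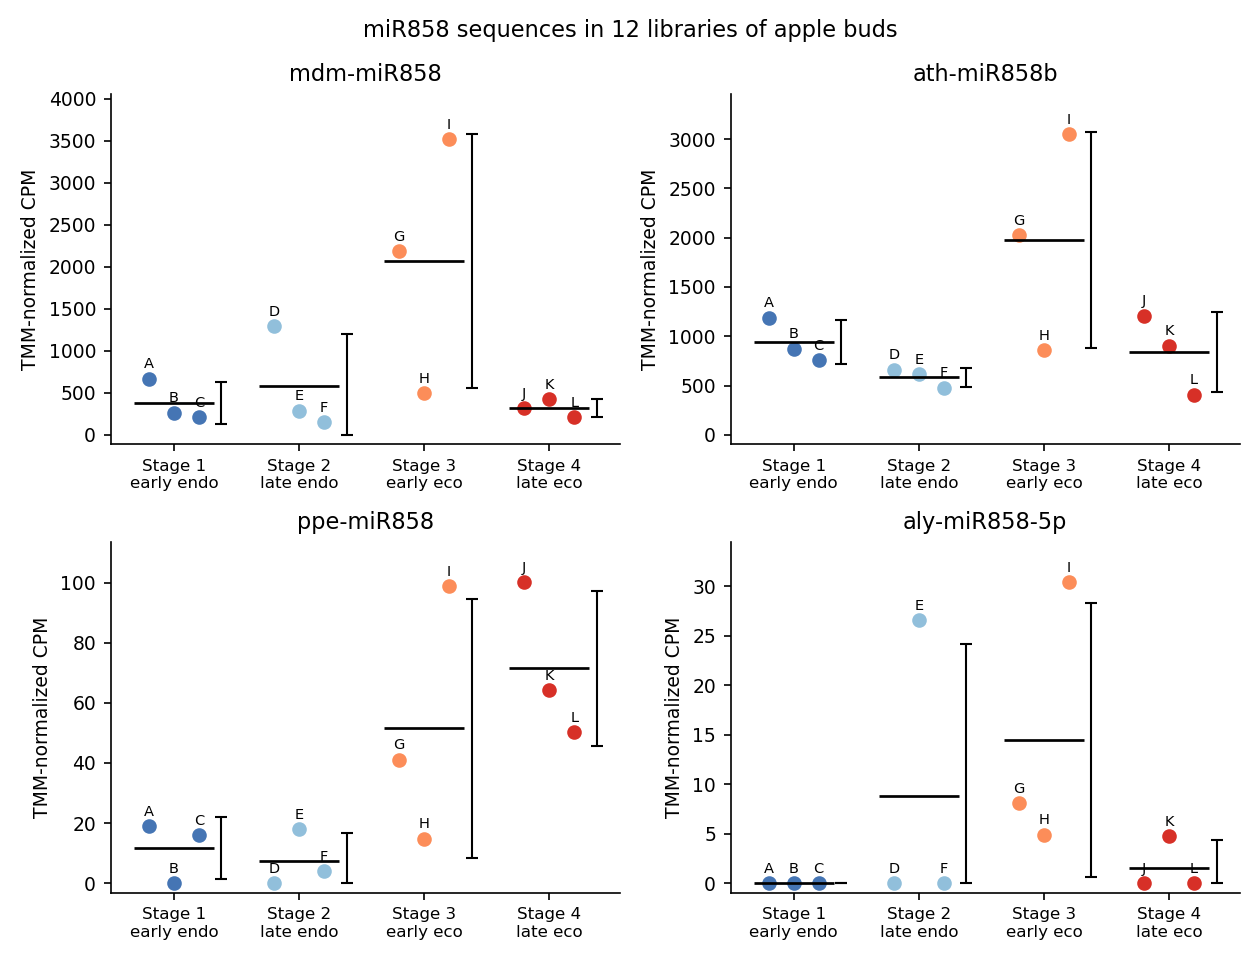
TMM-normalized CPM of the 4 miR858 sequences (y axis, linear, a scale per panel) in the 12 libraries by stage (x axis). Points are libraries with their letters, horizontal lines are stage means and vertical bars are 1 SD of 3 libraries, ended at 0 where they would pass it. Libraries G and I are high in mdm-miR858 and ath-miR858b and H is not, D is high in mdm-miR858 alone, and J, K and L of Stage 4 have 100.1, 64.2 and 50.2 CPM of ppe-miR858.

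Whether a sequence differed among the stages was tested with edgeR's quasi-likelihood F test on the raw counts of 238 sequences that passed a filter on low counts, with p values adjusted by Benjamini-Hochberg over the 238. The 4 members passed that filter. For any difference among the 4 stages, mdm-miR858 had an edgeR adjusted p of 0.0713, rank 4 of 238, and ath-miR858b one of 0.104, rank 11. For ppe-miR858 the edgeR adjusted p was 0.511 and for aly-miR858-5p 0.609. With edgeR, 0 of 4 members were called at an adjusted p under 0.05, against 1.26% of the sequences tested, and 2 of 4 at an unadjusted p up to 0.05, against 10.9%. With 1 library left out and aly-miR858-5p not counted, that second count was 1 (without I) to 3 (without E, among others). Without E or without K, aly-miR858-5p also had an unadjusted p up to 0.05. It had no reads in Stage 1 and, without E, none in Stage 2 either, so it is left out of that range. In the 7 contrasts, 0 of 4 members had an edgeR adjusted p under 0.05 either, against 0% of the sequences tested in Stage 2 against Stage 1, 0.42% in Stage 3 against Stage 1 and in Stage 4 against Stage 3, 0.84% in Stage 3 against Stage 2, 1.26% in Stage 4 against Stage 1 and between the phases, and 2.52% in Stage 4 against Stage 2. The call depended on the test and on the libraries: in DESeq2 the adjusted p was 0.0037 for mdm-miR858 and 0.023 for ath-miR858b, and in edgeR's quasi-likelihood test without library I it was 0.626 and 0.767. Without A, F, H or D, in that order, the edgeR adjusted p of mdm-miR858 was 0.0463, 0.0429, 0.0318 and 0.00854. It stayed above 0.05 when any of the other 8 was left out.

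Entry into ecodormancy was addressed by Stage 3 against Stage 2. The paper, from its forcing test, places the change to ecodormancy around the sampling date of Stage 2. The level of ath-miR858b was 3.38-fold higher in Stage 3, a log2 fold change of 1.76 (SE 0.47, edgeR adjusted p = 0.0846, rank 3 of 238). It was higher in 3 of 3 libraries than in any of Stage 2. That is only a description, since the share of all sequences that separate in this way is not given. For mdm-miR858 the log2 fold change was 1.84 (SE 0.69, edgeR adjusted p = 0.253). Without library D it was 3.43 (edgeR adjusted p = 0.0143), since E and F were the lower libraries of Stage 2. The rarer ppe-miR858 had a log2 fold change of 2.80 (SE 1.34, edgeR adjusted p = 0.478). At an unadjusted p up to 0.05, 3 of 4 members were higher in Stage 3, against 7.98% of the sequences tested, but only 1, ath-miR858b, without library F or without library I. The median log2 fold change of all 238 was 0.14 in this comparison and 0.15 for Stage 3 against Stage 1, and was within 0.07 of 0 in the other contrasts.

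Against Stage 1, Stage 3 had more mdm-miR858, with a log2 fold change of 2.45 (SE 0.71, edgeR adjusted p = 0.132), a 5.45-fold higher level. The log2 fold change of ath-miR858b was 1.07 (SE 0.46, edgeR adjusted p = 0.427). Of the 3 members with reads in both stages, these 2 were higher at an unadjusted p up to 0.05, against 7.56% of the sequences tested, and only mdm-miR858 without library B, C, G or I. The fourth, aly-miR858-5p, had no reads in Stage 1 and is not counted. Both Stage 3 differences shrank without library I, to 1.89 for mdm-miR858 and 0.67 for ath-miR858b on the log2 scale.

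From Stage 3 to Stage 4 the levels were lower again. The log2 fold change of mdm-miR858 was -2.71 (SE 0.71, edgeR adjusted p = 0.0798, rank 3 of 238), and the edgeR likelihood ratio test gave an adjusted p of 0.0369. As a description only, 3 of 3 libraries of Stage 4 lay under the lowest of Stage 3. The log2 fold change of ath-miR858b was -1.23 (SE 0.46, edgeR adjusted p = 0.205), and that of ppe-miR858 0.46 (SE 1.23, edgeR adjusted p = 0.910). These 2 of 4 members were lower at an unadjusted p up to 0.05, against 8.82% of the sequences tested, but only mdm-miR858 without library I or without L. For ath-miR858b the log2 fold change was -0.73 without L (edgeR adjusted p = 0.718), and -0.74 without D and L. With the reads outside miR166 as the scale, the log2 fold change was -1.88 for mdm-miR858 and -0.45 for ath-miR858b.

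Stages 1, 2 and 4 were not told apart for the major sequences. For mdm-miR858 the log2 fold change of Stage 4 against Stage 1 was -0.26 (SE 0.67) and for ath-miR858b -0.16 (SE 0.45), and both turned positive under some scalings. Stage 2 against Stage 1 gave 0.60 (SE 0.67) for mdm-miR858, which was -1.08 without library D, and -0.68 (SE 0.45) for ath-miR858b. Stage 4 against Stage 2 gave mdm-miR858 -0.87 (SE 0.68), which was 0.93 without D, and ath-miR858b 0.52 (SE 0.45), which was 1.29 without D and L. The 3 libraries of Stage 2 lay below the 3 of Stage 1 in ath-miR858b, but the edgeR adjusted p was 0.963. A p that misses the threshold does not show equal levels.

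**Figure D2:**
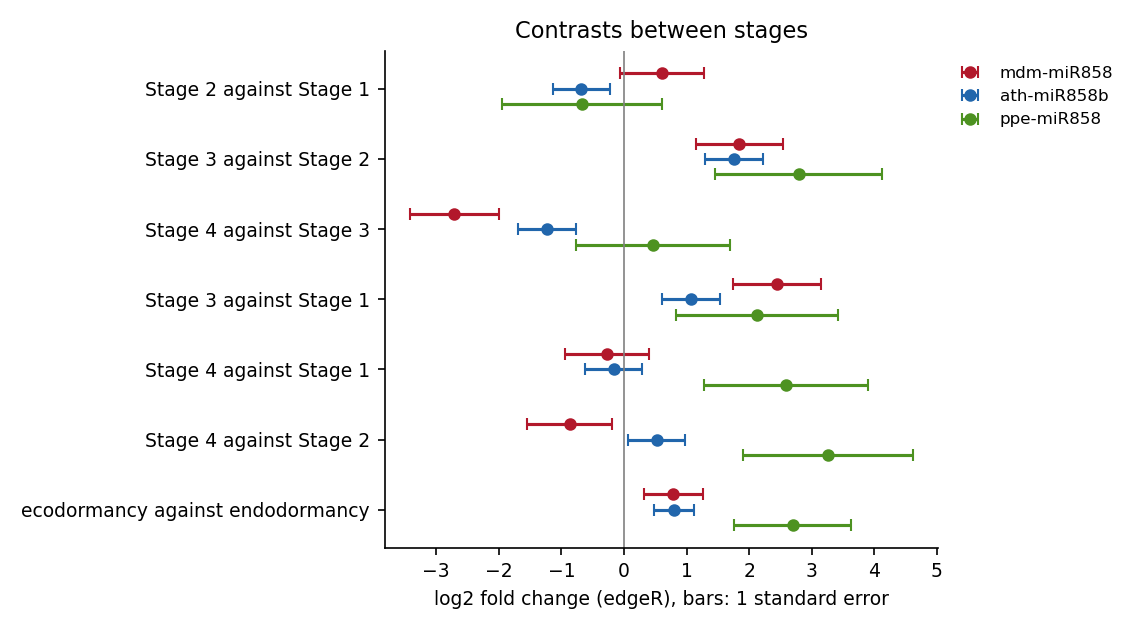
Log2 fold changes of 3 miR858 sequences from the edgeR model (x axis) in 6 contrasts of stages and in ecodormancy against endodormancy (y axis). Points are estimates and bars 1 standard error. For mdm-miR858 and ath-miR858b the points are positive in Stage 3 against Stages 1 and 2 and negative in Stage 4 against Stage 3 (-2.71 and -1.23), and for ppe-miR858 the point of Stage 4 against Stage 1 lies at 2.59.

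The miR166 share was lower in Stage 3 than in Stages 1 and 2 and overlapped that of Stage 4. It was 72.9%, 79.6% and 66.2% in G, H and I, against 83.7% to 86.1% in Stage 1 and 82.0% to 89.9% in Stage 2. In J, K and L of Stage 4 it was 78.4%, 79.8% and 91.4%. Library D, high in mdm-miR858, had 89.9%. Of the reads outside miR166, the miR858 family made up 0.929%, 0.573% and 0.589% in A, B and C, and 1.25%, 0.6246% and 0.423% in D, E and F. The shares were 1.82%, 0.971% and 2.31% in G, H and I, and 1.28%, 0.916% and 0.495% in J, K and L. On this scale too, I and G were the highest libraries, and H lay within the range of the other stages.

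The contrast of the phases set the average of Stages 3 and 4 (ecodormancy) against that of Stages 1 and 2 (endodormancy, with Stage 2 sampled around the change). It gave a log2 fold change of 0.79 (SE 0.48, edgeR adjusted p = 0.581) for mdm-miR858 and 0.80 (SE 0.32, edgeR adjusted p = 0.367) for ath-miR858b. Both were larger without library D, at 1.64 (edgeR adjusted p = 0.0784) and 1.00 (edgeR adjusted p = 0.155), and without D and L they were 1.72 and 1.14. With 1 library left out, the lowest values were 0.48 for mdm-miR858 (without F) and 0.59 for ath-miR858b (without J). Levels of the 6 libraries of a phase overlapped for both. The largest value was that of ppe-miR858, 2.70 (SE 0.94, edgeR adjusted p = 0.230, rank 9 of 238). At an unadjusted p up to 0.05, 2 of 4 members were higher in ecodormancy, against 6.3% of the sequences tested, and only ppe-miR858 without library I or without J. At an adjusted p under 0.05, 0 of 4 were called by edgeR. DESeq2 gave ppe-miR858 an adjusted p of 0.0372 in this contrast.

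The mean of ppe-miR858 was higher at Stage 4 (71.5 CPM) than at Stage 3 (51.6 CPM), whereas those of the major sequences were lower. For ppe-miR858 that difference was not called (edgeR adjusted p = 0.910), and whether members differ in it was not tested. The sequence had 19.1, 0 and 16.1 CPM in A, B and C, 0, 18.0 and 3.95 CPM in D, E and F, 41.1, 14.8 and 98.9 CPM in G, H and I, and 100.1, 64.2 and 50.2 CPM in J, K and L. Stage 4 lay wholly above Stages 1 and 2, again only a description, and overlapped Stage 3. The counts of 0 in B and D allow up to 2.49 and 2.71 CPM at a limit of 3 counts per library, so the sequence was below 3 CPM there. Stage 4 against Stage 2 had a log2 fold change of 3.26 (SE 1.36, edgeR adjusted p = 0.606), where 4.2% of the sequences tested were higher at an unadjusted p up to 0.05, and Stage 4 against Stage 1 had 2.59 (SE 1.31, edgeR adjusted p = 0.538). Values this low rest on 4 to 156 reads per library in the 10 libraries that had any.

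Since ppe-miR858 and ath-miR858b differ only by T1C, their reads were also compared within each library, where depth and scaling cancel. This share was chosen after its values were seen. Of the reads of both, ppe-miR858 made up 7.64%, 6.62% and 10.9% in J, K and L (95% exact intervals 6.24% to 9.24%, 5.29% to 8.16% and 8.69% to 13.6%). In the 9 libraries of Stages 1 to 3 the share was 0% to 3.14%, with a median of 1.70%, and the highest interval there ended at 4.31% (E). The 3 libraries of Stage 4 thus lay above the other 9. An exact permutation test over all assignments of the libraries to stages gave p = 0.00844, and 0.00260 to 0.0144 with 1 library left out. As the share was picked for this pattern, that p is not independent evidence of it.

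**Figure D3:**
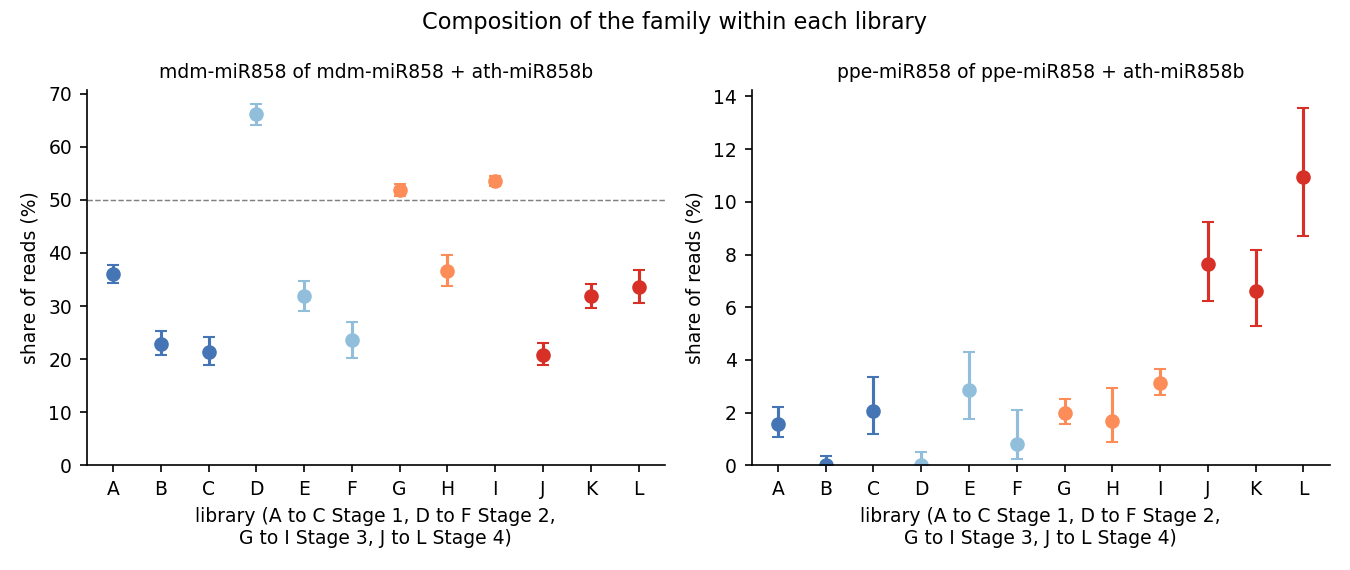
Shares of reads within each library (y axes, percent), with libraries A to L on the x axes coloured by stage and 95% exact binomial intervals that cover counting error only. Left, mdm-miR858 among the reads of mdm-miR858 and ath-miR858b, with a dashed line at 50%, which D, G and I exceed. Right, ppe-miR858 among the reads of ppe-miR858 and ath-miR858b, where J, K and L (6.62% to 10.9%) lie above the other 9 libraries (up to 3.14%).

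The balance of the major sequences, which differ in their last 2 bases, was compared in the same way. Of the reads of both, mdm-miR858 made up 36.0%, 22.9% and 21.4% in A, B and C, 66.1%, 31.8% and 23.5% in D, E and F, 51.9%, 36.7% and 53.6% in G, H and I, and 20.9%, 31.8% and 33.6% in J, K and L. It exceeded 50% in D, G and I, the libraries with the highest mdm-miR858 levels, and its exact 95% intervals were there 64.1% to 68.1%, 50.8% to 53.1% and 52.6% to 54.5%. The stage means were 26.8% ± 8.01, 40.5% ± 22.6, 47.4% ± 9.32 and 28.7% ± 6.89 (SD, n = 3). An exact permutation test found no difference among the stages beyond the spread of the libraries (p = 0.264), nor between ecodormancy and endodormancy (38.1% against 33.6%, exact two-sided p = 0.656). Without library D the exact p among the stages was 0.0608, and the phases differed by 10.9 points (exact p = 0.139) in place of 4.42. Without I they differed by 1.32 points (exact p = 0.924), without J by 7.86, without C by 1.98, without G by 1.65, without B by 2.28 and without F by 2.40. That mdm-miR858 had larger stage differences than ath-miR858b was therefore not shown by a test of their ratio.

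The rarest member, aly-miR858-5p, was read in 5 libraries, with 31 reads in E, 14 in G, 4 in H, 48 in I and 6 in K, or 26.6, 8.09, 4.92, 30.4 and 4.76 CPM. It was not detected in Stage 1, where a limit of 3 counts per library is 1.84 to 3.01 CPM, and the 3 libraries of Stage 3 lay above it. Folds against Stage 1 are not given, since the fitted values depend on how counts of 0 are handled. Of the reads of aly-miR858-5p and ath-miR858b together, aly-miR858-5p made up 4.14% in E and 0.398% to 0.988% in the other 4 libraries that had any.

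Across the 12 libraries, log2 CPM (with 0.5 CPM added) of mdm-miR858 and ath-miR858b had a Pearson r of 0.81, given as a description since depth, scaling and stage are shared. With ppe-miR858, r was 0.17 for mdm-miR858 and 0.40 for ath-miR858b. Among the 234 other tested sequences, those most like mdm-miR858 were mdm-miR7121e (r = 0.93), mtr-miR4414a-5p (0.91), bdi-miR393a (0.85), mdm-miR7121c (0.85) and mdm-miR11005 (0.79), with a median of 0.02 over the 234. The most like, mdm-miR7121e, had 441 ± 115, 548 ± 393, 1269 ± 865 and 269 ± 76.1 CPM in Stages 1 to 4 (SD, n = 3). Those most like ath-miR858b were mdm-miR171b (r = 0.91), the unnamed de novo sequence t05229383_x4081 (0.90), mdm-miR7120a-3p (0.88), ptc-miR396e-3p (0.87) and mdm-miR167g (0.87), with a median of 0.19. Of these, mdm-miR171b had 2694 ± 371, 1532 ± 90.0, 4323 ± 2382 and 1404 ± 648 CPM (SD, n = 3). No sequence was among the 5 nearest of both major members, although their own r was 0.81.

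Other miRNA families that target MYB, SPL or copper protein mRNAs served as a comparison list. Of its 6 families, miR159, which targets GAMYB-like mRNAs, had 18 sequences, of which 13 were tested. For any difference among the stages, 2 had an unadjusted edgeR p up to 0.05, against 10.9% of all sequences tested. Of the 13, 1, ptc-miR159d, had an edgeR adjusted p under 0.05 (0.0359), against 1.26% of all sequences tested. The most abundant, mdm-miR159d, had 81920.0 ± 8916, 62690.0 ± 5133, 90360.0 ± 36070.0 and 50330.0 ± 11730.0 CPM in Stages 1 to 4 (SD, n = 3, edgeR adjusted p = 0.647). The family miR156, which targets SPL mRNAs, had 10 sequences with 4 tested and 0 called at either threshold, and its most abundant, gma-miR156k, had an edgeR adjusted p of 0.936. For miR408, which targets mRNAs of copper proteins, 1 of 3 sequences was tested, mdm-miR408c, with an edgeR adjusted p of 0.971. The families miR828, miR397 and miR857 could not be analysed here. In Stage 3 against Stage 2, the median log2 fold change was 0.53 over the 13 miR159 sequences tested, 1.40 over the 4 of miR156 and -1.56 for the 1 of miR408. Over all sequences tested the median was 0.14. The 4 miR858 sequences had 1.84 (mdm-miR858), 1.76 (ath-miR858b), 2.80 (ppe-miR858) and 0.70 (aly-miR858-5p).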

How the data were processed

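Small RNAs were purified with the TraPR method, sequenced and counted by the authors with Mir-Island on the GDDH13 v1.1 genome, and their submitters' processing notes also name CASAVA and Bowtie 0.12.9. The authors deposited raw read counts per mature sequence, without normalization, in a table of 254 known sequences and a table of de novo hairpins, of which 199 loci were used. Loci were collapsed by sequence to 370 distinct sequences, 38 of them in both tables. The 48 further per-library columns were not used. Columns were assigned to libraries A to L by their numbers, and stages were taken from the labels and the study's sample table. No locus of the de novo table held the core of the family, so no precursor or position is given.

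Depth was the sum of mature reads. Counts were tested in edgeR 4.0.16 (R 4.3.3) with TMM scaling, filterByExpr (minimum count 10, minimum total 15) and 1 quasi-likelihood model with a mean per stage, with Benjamini-Hochberg adjustment across the 238 tested sequences. Each SE is the absolute log2 fold change over the square root of F. Alternatives were other scalings, filters, the likelihood ratio test, a robust spread, the known table alone, DESeq2 1.42.0 and leaving out each library. Omitting D and L together, and the ppe-miR858 share, were added after the values were seen. Shares were tested by exact permutation of libraries (Python 3.11.15, SciPy 1.17.1), with Clopper-Pearson intervals at 95% and a limit of 3 counts for a count of 0, which cover counting error only. The code of the tests was run on simulated data. Counts were drawn there with the same spread for all sequences, so these runs do not bear on the spread of the real libraries.

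Named sequences were the 4 members, the 5 other tested sequences nearest by Pearson r to each major member, and the most abundant sequence of each comparison family. The members and lists were chosen with earlier results of these data known. The libraries of a stage are biological replicates of 1 date.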

Additional observations from a re-analysis of the deposited data

Results flagged for a closer look

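In groups of 6 libraries per phase, the highest or lowest library was compared with its nearest neighbour by Dixon's ratio at its 95% critical value for the 4 levels and the share of mdm-miR858, which made 10 groups. In groups drawn from a normal distribution, chance alone marks about 1 group in 20. The groups here pool the stages of a phase and include skewed levels and counts of 0, so that rate may not hold. Library D, with 66.128% mdm-miR858 of the reads of mdm-miR858 and ath-miR858b, stood apart from the other endodormant libraries (gap over range 0.674), which had 21.4% to 36.0%. Library E, with 26.605 CPM of aly-miR858-5p, was the only endodormant library with reads of it. With the other endodormant libraries at 0, any level in E gives a gap over range of 1. Library I had 30.416 CPM of the same sequence, against 0 to 8.09 CPM in the other ecodormant libraries (gap over range 0.734).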

How the results depend on the processing

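No paired analysis was possible because the columns of the count tables carry no replicate number.

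The direction of mdm-miR858 and ath-miR858b in Stage 3 against Stages 1 and 2, in Stage 4 against Stage 3 and in ecodormancy against endodormancy was kept under the 11 other settings and with each of the 12 libraries left out, but the side of the threshold was not. For any difference among the stages, the adjusted p of mdm-miR858 (0.0713) was 0.0354 with median-of-ratios scaling, 0.0121 with the reads of the study's sample table, 5.23e-07 with no filter, 0.0102 with at least 10 reads in every library, 0.00668 in edgeR's likelihood ratio test, 0.0037 in DESeq2, 0.0269 without D and L and 0.00854 (without D) to 0.626 (without I) with 1 library left out. That of ath-miR858b (0.104) was 0.0305 with no filter, 0.0385 with at least 10 reads in every library, 0.023 in DESeq2 and 0.0325 (without H) to 0.767 (without I).

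The log2 fold changes below passed an adjusted p of 0.05 under the settings named, and the ranges with 1 library left out include fits that did not pass. For mdm-miR858 in Stage 3 against Stage 1 they were 2.39 with no filter, 2.61 with at least 10 reads in every library and 2.56 in DESeq2, and in Stage 3 against Stage 2 1.73 with no filter and 3.43 without D and L, with a range of 1.14 (without F, not passed) to 3.43 (without D, passed) with 1 library left out. For ath-miR858b in Stage 3 against Stage 2 they were 2.18 with the sample table's reads, 1.77 with no filter, 1.72 with at least 10 reads in every library, 1.71 in DESeq2, 2.03 without D and L, with a range of 1.36 (without I, not passed) to 2.03 (without D, passed). For mdm-miR858 in Stage 4 against Stage 3 they were -3.11 with the sample table's reads, -2.48 with no filter, -2.53 with the stricter filter, -2.71 in the likelihood ratio test and -2.59 in DESeq2, with a range of -3.01 (without K) to -2.16 (without I), of which neither passed, while -2.90 without H did. For ppe-miR858, ecodormancy against endodormancy gave 2.83 with no filter and 2.77 in DESeq2.

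Some contrasts among Stages 1, 2 and 4 that no test called changed sign. Without D and L, mdm-miR858 had -1.08 in Stage 2 against Stage 1 and 1.1 in Stage 4 against Stage 2, and with 1 library left out these ranged from -1.08 to 1.35 and from -1.32 to 0.93, against 0.60 and -0.87 with all libraries. Stage 4 against Stage 1 gave mdm-miR858 0.43 and ath-miR858b 0.62 with the total of mature reads, 0.21 and 0.31 with the total outside miR166, 0.075 and 0.12 with at least 10 reads in every library, 0.10 and 0.18 with the known table alone and 0.019 and 0.26 without D and L, and ath-miR858b 0.029 with median-of-ratios scaling, 0.049 with no filter and 0.029 in DESeq2. With 1 library left out the ranges were -0.54 to 0.61 and -0.46 to 0.27.

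The number of sequences with an adjusted p under 0.05 for any difference (3) was 5 with median-of-ratios scaling, 11 with no filter, 10 with at least 10 reads in every library, 6 in the likelihood ratio test, 16 in DESeq2, 7 without D and L and 1 to 13 with 1 library left out. At an unadjusted p up to 0.05 (26) it was 41 with no filter and 56 without D and L. The cause was not tested. With 3 libraries per stage, ppe-miR858 and aly-miR858-5p rest on few reads.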
